A study of Mus musculus with 4 samples.

Results

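The Col6a5 Spon1 Col15a1 fibroblasts are 2275 cells of the mouse renal capsule, the connective tissue sheath around the kidney, chosen by the transcripts they held out of 37361 cells that passed quality filters (39436 deposited barcodes). Droplet single-cell RNA libraries had been made from whole capsules of untreated mice that were dissected off the kidney, digested with a collagenase blend and DNase, and sieved. There were 2 libraries of aged mice and 2 of young mice. No source used here states the mice's age in months, their strain or how many were pooled into a library. The replicates of an age may therefore be technical, and each p-value below refers to the spread between 4 libraries and no further. A cell was taken as a gated fibroblast when Col1a1, Col1a2 and Col3a1 summed to at least 5 unique molecular identifiers (UMIs) with none of Ptprc, the pan-leukocyte marker, or Pecam1, an endothelial marker. It was a member when at least 3 of the 5 markers Col6a5, Spon1, Sult1e1, Col15a1 and Itm2a had a UMI and fewer than 2 of Smpd3, Cxcl13 and Edn1 did. This gave 115 and 181 members in the aged libraries and 957 and 1022 in the young libraries, and left 10726 other gated fibroblasts, called the other fibroblasts below. All of these 13 genes were used to choose the cells, so their levels are given as a description with no test.

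Fibroblasts make and remodel the collagen-rich matrix of a connective tissue sheath and send signals to the vessels, nerves and immune cells within it. Fibroblasts of many mouse organs include a Pi16-expressing adventitial population with Dpp4 and a Col15a1-expressing population that lies closer to parenchyma and produces basement membrane proteins. Col6a5 encodes a long alpha chain of collagen VI, the beaded-filament collagen that surrounds cells and borders basement membranes, and Col15a1 encodes collagen XV of the basement membrane zone. Spon1 encodes F-spondin, a secreted matrix protein with thrombospondin repeats, Sult1e1 encodes oestrogen sulfotransferase, which inactivates oestrogens by sulphation, and Itm2a encodes a membrane protein of the BRICHOS family. Among the genes that set cells aside, Smpd3 encodes a neutral sphingomyelinase, Cxcl13 a B cell chemokine and Edn1 the vasoconstrictor peptide endothelin-1.

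Col6a5, Sult1e1 and Col15a1 were detected together in both of the commonest marker combinations of the aged members. Of these genes, the letters around the start are shown for Col6a5 and Sult1e1, which hold matches to the motifs searched. The window of Col15a1 holds no match and is not shown. The windows run from 250 bases before to 50 bases after the gene's start, 5′ to 3′ on the gene's strand, from RefSeq on build GRCm38.p6, where Col6a5 lies at chr9:105960594-105960893 and Sult1e1 at chr5:87591562-87591861, both on the minus strand. Capitals mark matches to 2 of the 5 motifs searched on both strands: the E-box CAGCTG, and the TEAD motif GGAATG or its reverse complement CATTCC.
Col6a5: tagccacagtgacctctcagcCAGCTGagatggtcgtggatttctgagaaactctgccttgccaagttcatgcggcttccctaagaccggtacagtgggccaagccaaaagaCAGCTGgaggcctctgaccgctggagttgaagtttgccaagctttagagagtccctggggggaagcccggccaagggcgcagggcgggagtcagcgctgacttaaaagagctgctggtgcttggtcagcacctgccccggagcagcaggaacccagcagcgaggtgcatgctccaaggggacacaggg
Sult1e1: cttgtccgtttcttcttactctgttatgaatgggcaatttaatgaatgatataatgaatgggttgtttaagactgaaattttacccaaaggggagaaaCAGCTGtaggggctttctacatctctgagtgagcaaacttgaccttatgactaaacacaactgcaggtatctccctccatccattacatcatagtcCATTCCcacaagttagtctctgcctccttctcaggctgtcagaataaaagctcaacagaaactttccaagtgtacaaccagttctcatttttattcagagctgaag
The Col6a5 window holds CAGCTG at -229 and at -138 relative to the start, and the Sult1e1 window holds CAGCTG at -152 and CATTCC at -56. Of 32851 RefSeq promoter windows of 300 bases, 16.3% hold CAGCTG and 14.7% hold GGAATG or CATTCC. The other motifs were the TATA box TATAAA, held by 13.6% of windows, the AP-1 motif TGANTCA, held by 7.81%, and the RUNX motif TGTGGT, held by 16.8%. No letters of the 5 motifs were found in the windows of Col15a1 and Itm2a, which says only that those letters are not there. Windows were found for 4 of the 5 markers, without Spon1.

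Sequencing depth per cell was lower in the second aged library than in the others. Members had a median of 8190 and 6006 UMIs in the aged libraries and 7466 and 7446.5 in the young libraries, and summed to 1025795 and 1158182 UMIs in aged and 7534073 and 8073009 UMIs in young libraries. Between 22 and 40 cell barcodes were shared by any pair of libraries, none of them by members of both. Fibroblast markers that the rule did not use were present in nearly all members. Pdgfra, a receptor found on fibroblasts, had a UMI in 97.4% and 95.0% of aged members and in 96.3% and 94.2% of young members, against 1.39% to 3.85% of immune droplets (Ptprc detected, fewer than 5 collagen UMIs), whose median depth was 5770.5 and 4354.5 UMIs in aged and 7124.5 and 7516 in young libraries. The matrix proteoglycan Dcn had a UMI in 100% of members of every library, and Lum in 95.7% and 93.9% of aged members and 91.1% and 90.3% of young members.

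Members made up 8.59% (exact binomial 95% interval 7.15 to 10.2) and 8.07% (6.98 to 9.28) of the gated fibroblasts in the aged libraries, and 21.7% (20.5 to 22.9) and 20.4% (19.3 to 21.6) in the young libraries. The intervals cover counting error only. When every cell was thinned to 3000 UMIs before the rule was applied, the shares were 3.79% and 4.95% in aged and 17.1% and 15.8% in young libraries. The share depends on the markers asked for, and Itm2a was the marker whose detection differed most between the ages. Itm2a had a UMI in 33.0% and 30.4% of aged members and in 77.6% and 76.0% of young members, and in 7.93% and 7.28% of aged and 46.2% and 42.6% of young other fibroblasts, while immune droplets had one in 5.34% and 4.80% in aged and 1.79% and 1.93% in young libraries. Asking for 3 of the 4 markers without Itm2a gave mean shares of 6.54% in aged and 14.6% in young libraries, against 8.33% ± 0.369 and 21.0% ± 0.898 with all 5 (SD, n = 2 each). Because the rule reads these transcripts, the shares are a description and were not tested.

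Members of the aged libraries reached the threshold with fewer markers. Exactly 3 markers were detected in 71.3% of aged and 47.5% of young members, 4 in 25.3% of aged and 34.4% of young members, and all 5 in 3.38% of aged and 18.1% of young members. The commonest combination in aged members was Col6a5, Sult1e1 and Col15a1 without the others (63 cells, 21.3%), followed by the same 3 with Spon1 (55 cells, 18.6%). In young members it was all 5 markers (359 cells, 18.1%), followed by all but Sult1e1 (276 cells, 13.9%). At the edge of the rule, cells with exactly 3 markers and cells with exactly 2 differed in other genes as well. Agt, which encodes angiotensinogen, stood at 84.6 CPM, the UMIs of a gene scaled to a common total, in aged and 29.3 CPM in young cells with 3 markers, and at 33.3 CPM in aged and 4.35 CPM in young cells with 2 markers. The dipeptidyl peptidase gene Dpp4 ran the other way, at 28.2 CPM in aged and 113 CPM in young cells with 3 markers, and 102 CPM in aged and 176 CPM in young cells with 2 markers.

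Levels below are CPM of the UMIs summed over the cells of a library, scaled by TMM across members and other fibroblasts. Col6a5 stood at 605 and 633 CPM in aged and 691 and 688 CPM in young members, and at 101 and 114 CPM in aged and 133 and 130 CPM in young other fibroblasts. Spon1 stood at 217 and 168 CPM in aged and 349 and 325 CPM in young members, and Col15a1 at 318 and 252 CPM in aged and 507 and 429 CPM in young members. Both were lower in each aged library than in each young one. Sult1e1 went the other way, at 794 and 1201 CPM in aged and 545 and 714 CPM in young members. Itm2a had 71.1 and 83.3 CPM in aged and 295 and 307 CPM in young members, and its level in young other fibroblasts (136 and 134 CPM) was above that in aged members. Of the genes that set cells aside, Smpd3 was still present in members, at 167 and 203 CPM in aged and 296 and 280 CPM in young libraries, against 662 to 998 CPM in other fibroblasts, while Edn1 stood between 4.38 and 9.36 CPM in members and between 97.3 and 160 CPM in other fibroblasts.

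**Figure D1:**
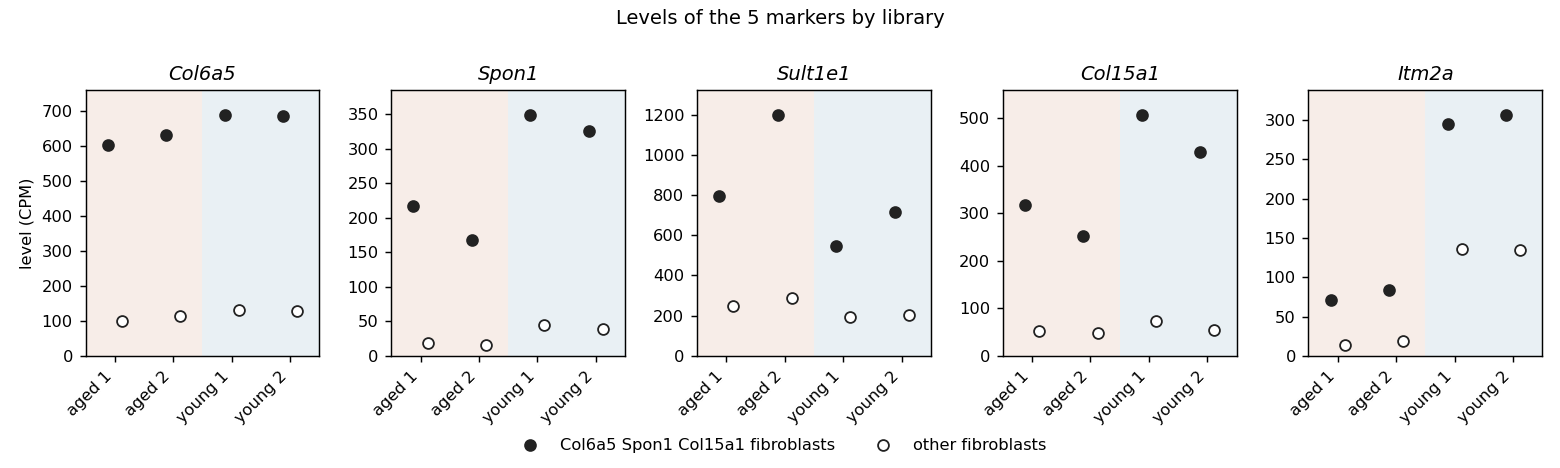
Level in CPM (y axis, linear) of the 5 markers of the rule in each library (x axis), in the Col6a5 Spon1 Col15a1 fibroblasts (filled points) and the other fibroblasts (open points); each point is the sum of 1 library. Itm2a lies between 71.1 and 83.3 CPM in aged and between 295 and 307 CPM in young members, while the Col6a5 points of the members span 605 to 691 CPM.

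The gate's own collagens differed with age in both sets. Col1a1 stood at 1149 and 992 CPM in aged and 7665 and 5730 CPM in young members, and at 1128 and 1052 CPM in aged and 3370 and 3417 CPM in young other fibroblasts. Col3a1 stood at 2008 and 1442 CPM in aged and 8907 and 7245 CPM in young members, and at 1968 and 1963 CPM in aged and 5487 and 5505 CPM in young other fibroblasts. Members thus exceeded the other fibroblasts in these collagens in the young libraries, while in the aged libraries the levels of both sets overlapped for Col1a1 and Col3a1.

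Genes outside the rule also set the members apart from the other fibroblasts. Of 4963 genes with at least 30 CPM in either set, 1183 (23.8%) were higher and 1352 (27.2%) were lower in members in all 4 libraries; since members were chosen on transcripts of the same cells, these values are a description with no test. Agt had 104 and 145 CPM in aged and 111 and 130 CPM in young members, against 8.53 and 12.6 CPM in aged and 6.77 and 6.17 CPM in young other fibroblasts. It was present in 33.0% and 26.5% of aged and 17.0% and 19.8% of young members, and in at most 0.778% of immune droplets. Fndc5, the gene of the irisin precursor, stood between 71.1 and 81.6 CPM in members of the 4 libraries and between 6.67 and 14.4 CPM in other fibroblasts. The complement component gene C7 had 440 and 545 CPM in aged and 397 and 396 CPM in young members, with log2 ratios to the other fibroblasts of 1.80 to 2.13. Igf1, the growth factor that signals through the insulin-like growth factor receptor, had 1301 and 1253 CPM in aged and 1552 and 1564 CPM in young members, with log2 ratios of 1.53 to 1.65. Sox9, a transcription factor of cartilage and of several progenitor cells, had log2 ratios of 1.54 to 3.72, the higher ones in young libraries, where other fibroblasts had 5.59 and 3.51 CPM. Mylk, Hpca, Rgcc, Serpina3n, Lcn2, Gnai1, Cntfr and Aoc3 were also among the 15 genes of highest smallest ratio, and each was higher in members in every library.

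Car3, Fabp4 and Adipoq, genes known from adipocytes, were high in members and concentrated in cluster 10, whose 22 aged members held 1313 Car3, 1361 Fabp4 and 57 Adipoq UMIs and whose 483 young members held 11383 Car3, 11696 Fabp4 and 668 Adipoq UMIs. The cell with most UMIs held 68.7% and 36.9% of the Fabp4 UMIs of aged members and 38.4% and 31.5% of those of young members. Car3 stood at 1197 and 348 CPM in aged and 725 and 1101 CPM in young members, and 18.4 to 98.6 CPM in other fibroblasts. In the first aged library 11 members held a Car3 UMI and 1 of them held 72.7% of the 1229 UMIs; the top cell held 53.7% in the second aged library and 27.7% and 32.7% in the young libraries. A Car3 UMI occurred in 9.57% and 9.39% of aged and 9.09% and 11.7% of young members, and in 4.59% and 4.41% of aged and 13.7% and 13.6% of young immune droplets, so in the young libraries the share of members was at or below that background. Of 58 Adipoq UMIs in the first aged library 56 came from 1 cell. Lep, a defining adipocyte gene, was the only 1 of the 6 genes of the adipocyte marker list with no UMI in members. Of that list, 3 genes were higher in members than in other fibroblasts in all 4 libraries, and its median log2 ratio was 3.31. The list's summed level was 1307 and 362 CPM in aged and 801 and 1244 CPM in young members. A Fabp4 UMI was more widespread, in 55.7% and 51.9% of aged and 21.8% and 23.3% of young members.

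Genes of the Pi16-type adventitial fibroblasts were low in members. All 11 genes of that list were lower in members than in other fibroblasts in all 4 libraries, against 20.2% of the 14052 genes whose levels summed to at least 4 CPM, and the list's median log2 ratio was -2.40, against -0.02 over all those genes. Its summed level was 1409 and 1879 CPM in aged and 3221 and 3090 CPM in young members, and 7894 and 7544 CPM in aged and 9325 and 9759 CPM in young other fibroblasts. Dmkn and Krtdap, genes known from epidermal keratinocytes, were the lowest by this measure, with at most 14.1 and 31.0 CPM in members and at least 133 and 211 CPM in other fibroblasts. Of the 10 genes of the Col15a1-type list that the rule did not use, 5 were higher and 3 lower in members in all 4 libraries, beside 17.4% higher of the 14052 genes. One of the 5 was the enkephalin precursor Penk, with 1095 and 1633 CPM in aged and 1792 and 1851 CPM in young members and 502 to 655 CPM in other fibroblasts.

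When the 13001 gated fibroblasts were clustered without the 13 genes of the rule, members fell into many of the 22 clusters, and different clusters held most of the aged and most of the young members. Cluster 0, led by Cxcl14, Mmp3, Cxcl12, Apod and C4b, held 72.6% of aged and 1.41% of young members, and also 518 and 831 of all aged and 32 and 24 of all young gated fibroblasts. Cluster 10, led by Car3, Agt, Adipoq and Fabp4, held 7.43% of aged and 24.4% of young members, and 75.8% of its cells were members. Cluster 1, led by Thbs4 and Col12a1, held 2.03% of aged and 18.7% of young members, and cluster 6, led by Dlk1 and Tgfbi, 1.35% of aged and 18.1% of young members. Cluster 2, led by the early response genes Atf3 and Btg2, held 1.35% of aged and 12.2% of young members, cluster 4, led by Cxcl13 and H19, 2.36% of aged and 8.34% of young members, and cluster 15, led by Mfap4 and Wisp2, no aged and 4.80% of young members. The libraries were not integrated, so a cluster mostly of 1 age may be that age's libraries, and the cluster shares are not given as a change in cell types.

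**Figure D2:**
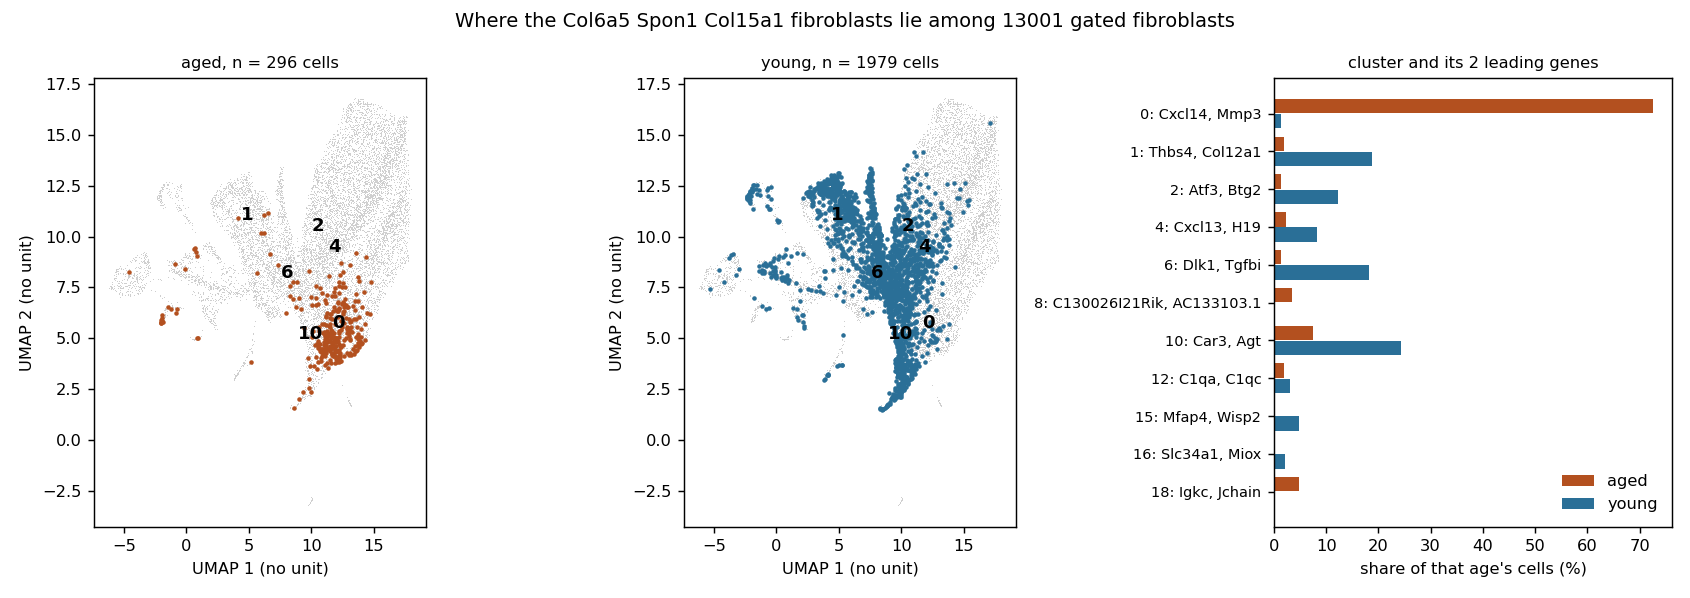
Left and middle, UMAP maps (axes without unit) of the 13001 gated fibroblasts in grey with the 296 aged and the 1979 young Col6a5 Spon1 Col15a1 fibroblasts in colour and cluster numbers at cluster medians; right, share (x axis, percent) of aged and young members in each Leiden cluster with at least 2% of either (y axis). Cluster 0 held 72.6% of aged and 1.41% of young members, while no cluster held more than 24.4% of the young members.

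The markers were not spread evenly over these clusters. Among young members, Col6a5 reached 1377 CPM in cluster 10, 512 CPM in cluster 1, 229 CPM in cluster 6 and 21.8 CPM in cluster 15 (CPM without TMM here). Itm2a stood at 388, 125, 460 and 218 CPM in those 4 clusters, and Col1a1 at 2452, 7442, 12815 and 27474 CPM. In young members Agt was concentrated in cluster 10, at 381 CPM in its 483 young members, against 0.780 CPM in the 371 young members of cluster 1. Among aged members Agt stood at 313 CPM in the 22 of cluster 10 and 123 CPM in the 215 of cluster 0. Those of cluster 0 held more of its transcripts, 180 UMIs against 66 in cluster 10. Sox9 and Rgcc, named above as higher in members, were also among the leading genes of cluster 10. Among young members Sox9 stood at 150 CPM in cluster 10, 109 CPM in the 28 of cluster 0 and 0.390 CPM in cluster 1. The cells that the rule takes did not form 1 cluster, and they are called here by the rule.

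Between aged and young members, 1127 of 12394 genes tested passed an adjusted p of 0.05 in the edgeR quasi-likelihood test (9.09%), 486 higher (3.92%) and 641 lower (5.17%) in aged members, the rule's genes not counted. Of these, 227 were more than 2-fold higher and 416 more than 2-fold lower. The median log2 fold change of all genes tested was -0.01. In the other fibroblasts 3611 of 15725 genes passed (23%), 1757 higher (11.2%) and 1854 lower (11.8%) in aged. Those sums hold more cells, so the numbers of genes are not compared. Without the first young library 696 genes passed in members and 1923 in other fibroblasts, and without the second 746 in members and 1745 in other fibroblasts. In each sentence below, log2 fold changes are aged over young with the standard error of the edgeR fit, and the p is its Benjamini-Hochberg adjusted value.

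The 12 named rises, with log2 fold changes of 1.70 to 3.26, included a matrix protease, chemokines, a complement gene and a lipocalin, described first. Mmp3, which encodes the matrix protease stromelysin-1, had 130 and 82.4 CPM in aged and 11.8 and 10.6 CPM in young members (log2 fold change 3.26 ± 0.21, edgeR adjusted p = 3.76e-06). Cxcl14, a chemokine of epithelia and stroma, had 466 and 196 CPM in aged and 45.2 and 46.3 CPM in young members (2.87 ± 0.29, adjusted p = 7.51e-05). Cxcl12, the ligand of the receptor CXCR4 that retains lymphocytes and progenitors, had 1846 and 1200 CPM in aged and 274 and 274 CPM in young members (2.50 ± 0.17, adjusted p = 5.07e-06). No aged value of these 3 genes overlapped a young one, and for each the first aged library was the higher of its pair. The complement gene C4b had 1127 and 1061 CPM in aged and 195 and 221 CPM in young members (2.43 ± 0.11, adjusted p = 2.8e-07), although reads of its near-identical copy C4a can be split between them. Apod, a lipid-binding lipocalin, had 1229 and 778 CPM in aged and 241 and 214 CPM in young members (2.17 ± 0.18, adjusted p = 1.91e-05).

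The rises described above were not particular to members. In gated fibroblasts with 0 of the markers and fewer than 2 of Smpd3, Cxcl13 and Edn1, the same genes were higher in aged cells. Cxcl12 stood there at 514 CPM in aged and 55.9 CPM in young cells, and C4b at 510 and 68.5 CPM. Apod stood at 702 and 116 CPM, Mmp3 at 78.3 and 0.852 CPM and Cxcl14 at 31.5 and 3.92 CPM. Most of the other leading rises were likewise shared in direction with the other fibroblasts. Kng2, a kininogen gene with a close paralog in Kng1, rose by a log2 fold change of 2.65, Sept4 of the septin cytoskeleton by 1.95, Enpp5 by 1.72, the adhesion molecule Vcam1 by 1.73 (253 and 183 CPM in aged, 71.1 and 63.1 CPM in young members) and the cell cycle inhibitor Cdkn2c by 1.70 (111 and 90.3 CPM in aged, 25.4 and 37.4 CPM in young members). In the other fibroblasts their log2 fold changes were 1.93, 3.02, 1.94, 1.51 and 1.76. Olfml2a, an olfactomedin-domain matrix protein gene, had 32.1 and 28.1 CPM in aged and 3.66 and 4.67 CPM in young members (2.87 ± 0.28, adjusted p = 5.81e-05), against 51.1 and 50.3 CPM in aged and 33.8 and 37.8 CPM in young other fibroblasts (0.51). Its rise in members was the larger by 2.34 in the test of the difference (edgeR adjusted p = 4.96e-05). Rtn1, a reticulon gene, likewise rose by 2.47 in members and 1.00 in other fibroblasts (difference 1.47, adjusted p = 0.00622), and that difference was 1.06 with an adjusted p of 0.0520 without the second aged library.

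**Figure D3:**
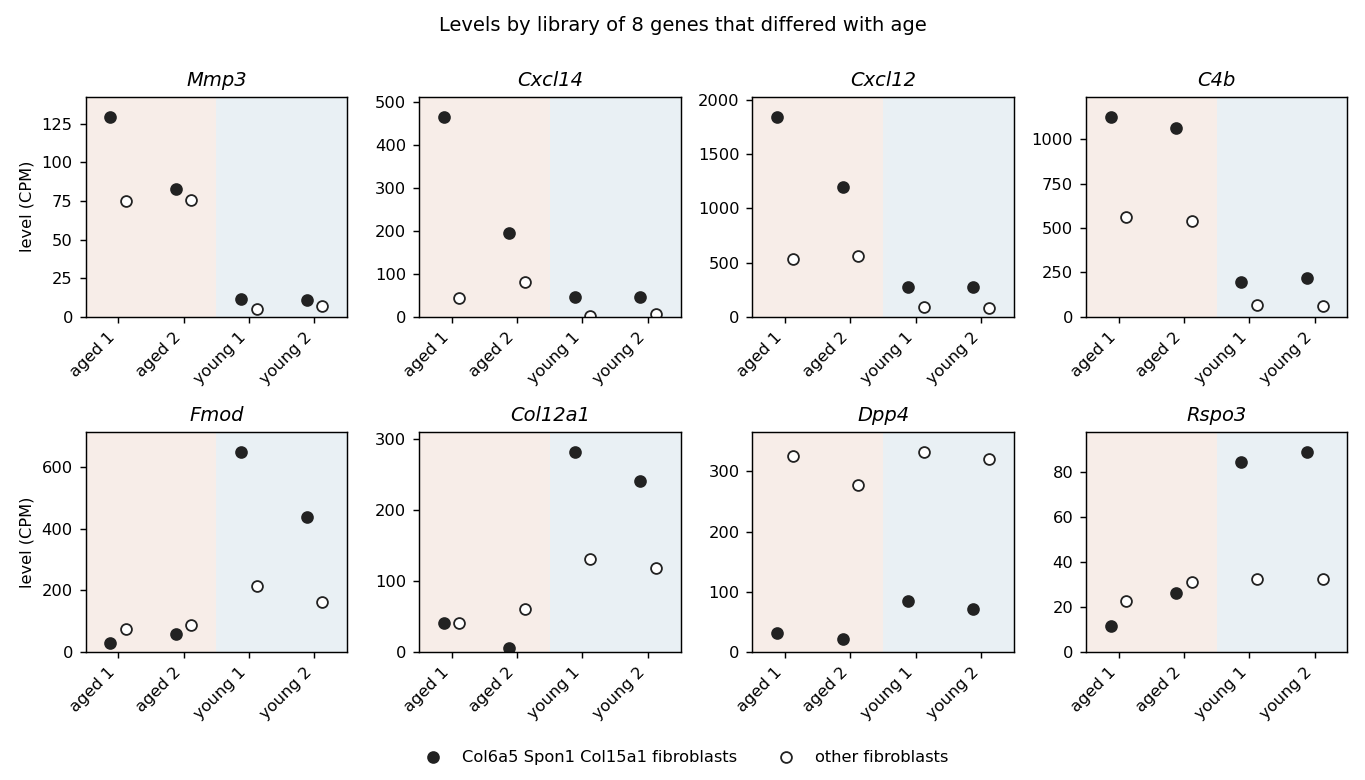
Level in CPM (y axis, linear and starting at 0) of 4 genes that rose (upper row) and 4 that fell (lower row) with age in the Col6a5 Spon1 Col15a1 fibroblasts, by library (x axis); filled points are the members and open points the other fibroblasts, 1 sum of cells per library. Dpp4 in members lies between 21.9 and 31.2 CPM in aged and between 71.2 and 85.3 CPM in young libraries, while the open points lie between 277 and 332 CPM at both ages.

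Of the 12 named falls, 4 genes of matrix and tendon are described first, and the larger falls of Kcnma1, Npnt, Alcam and Kdr after them. Fmod, which encodes the collagen-binding proteoglycan fibromodulin, had 31.2 and 59.6 CPM in aged and 648 and 437 CPM in young members (log2 fold change -3.53 ± 0.25, edgeR adjusted p = 6.39e-06). Col12a1, whose collagen XII bridges collagen fibrils, had 40.9 and 6.14 CPM in aged and 281 and 241 CPM in young members (-3.49 ± 0.37, adjusted p = 9.72e-05). Tnmd, the tendon gene tenomodulin, had 0 and 6.14 CPM in aged and 43.4 and 43.2 CPM in young members (-3.71 ± 0.45, adjusted p = 0.000292). Aged and young values of these 3 genes did not overlap. Thbs4, a thrombospondin of tendon and muscle matrix, had 9.74 and 0.877 CPM in aged and 70.5 and 44.0 CPM in young members (-3.46 ± 0.50, adjusted p = 0.001), and 90.0% of its UMIs in the first aged library were in 1 cell. With DESeq2 neither Tnmd (adjusted p = 0.243) nor Thbs4 (0.0951) passed.

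Several falls rested on a handful of transcripts in the aged members. Kcnma1, the calcium-activated potassium channel gene, had 1 UMI in all aged and 496 UMIs in all young members, a 69.4-fold lower level with a 95% counting interval of 12.4 to 2747. Npnt, the basement membrane protein nephronectin, had 2 UMIs in aged and 640 in young members, a 44.8-fold lower level with an interval of 12.3 to 371. The adhesion molecule gene Alcam had 1.95 and 7.89 CPM in aged and 80.8 and 72.6 CPM in young members, and Kdr, a receptor of vascular endothelial growth factor, 0.974 and 7.02 CPM in aged and 66.9 and 51.6 CPM in young members. Both lay below every young value in each aged library. Their log2 fold changes were -3.88 and -3.80. Pdgfrl, Fam180a, Gucy1a3 and Thrsp completed the leading falls, with log2 fold changes of -3.49, -3.46, -3.27 and -3.53. For Thrsp, a lipogenic gene, the young libraries themselves differed, at 18.7 and 57.8 CPM.

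**Figure D4:**
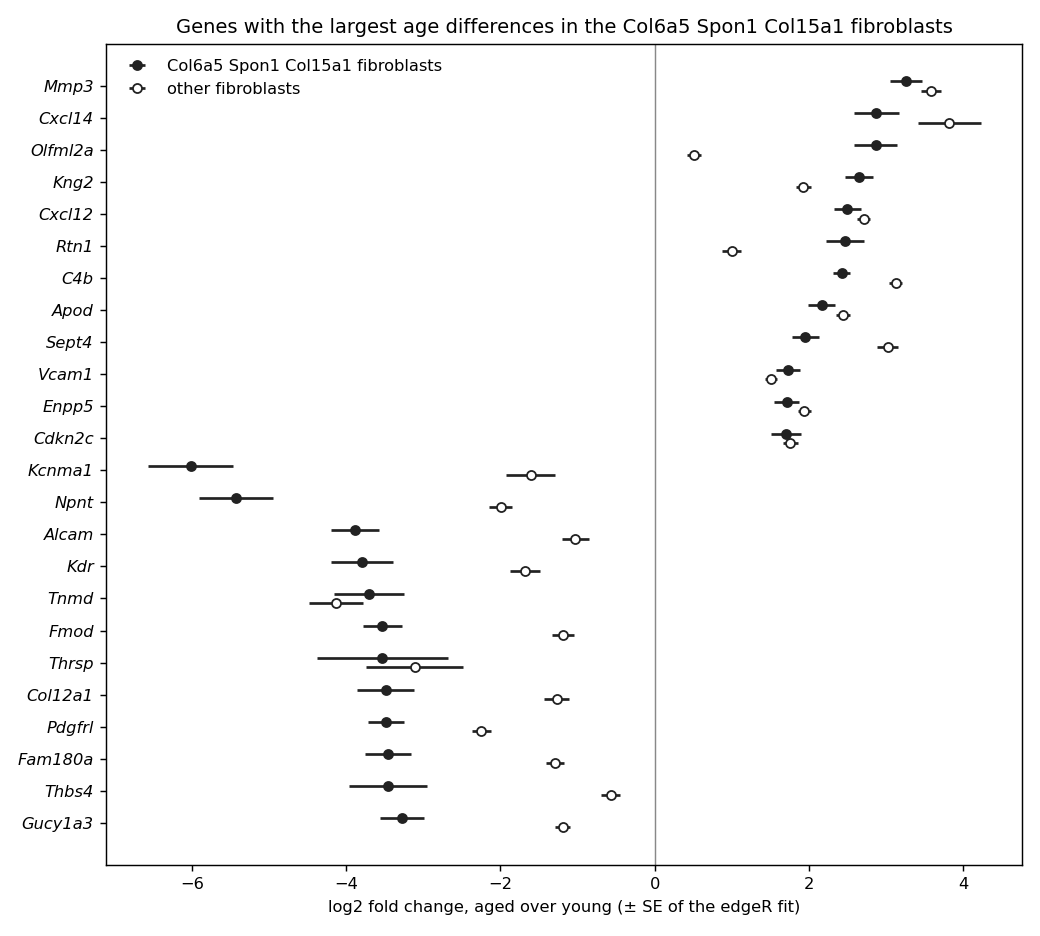
Log2 fold change aged over young (x axis, with the SE of the edgeR fit as bars) of the 12 rising and 12 falling genes of largest change (y axis) in the Col6a5 Spon1 Col15a1 fibroblasts (filled) and in the other fibroblasts (open). Fmod stands at -3.53 in members and -1.19 in other fibroblasts, while Mmp3 stands at 3.26 and 3.58; the points of Kcnma1 and Npnt rest on 1 and 2 UMIs in the aged members.

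Because the clusters of aged and young members differed, the same test was run within single clusters. Of 58 genes described here that passed over all members, 41 could be tested among the 22 aged and 483 young members of cluster 10, where 39 kept their direction and 21 passed. Among the 215 aged and 28 young members of cluster 0, 40 could be tested, 36 kept their direction and 15 passed. Apod, C4b, Col6a2, Cxcl12, Hspg2, Nid1, Pltp and Spon2 passed in both clusters. Cxcl12 had log2 fold changes of 1.44 in cluster 10 and 1.28 in cluster 0, against 2.50 over all members, and C4b 1.12 and 2.30. Cxcl14 stood at 0.04 in cluster 10 and 2.82 in cluster 0, where only the second passed. Fmod turned round, at 1.21 in cluster 10 and 0.86 in cluster 0, neither of them past the threshold, and Eln stood at -2.82 in cluster 10, past it, and at -0.15 in cluster 0. Of the 12 leading rises, 7 were among the 12 leading genes of the members in cluster 0 (58.3% of each list), and of the 12 leading falls 6 were among those of cluster 1 (50.0% of each list). The clusters were built from these same cells, with only the 13 genes of the rule left out. Genes tested here, such as Cxcl12, Apod and C4b that lead cluster 0, can therefore have helped to place its young members. The values within a cluster are thus a description, and a gene passing there is not separate evidence of an age change. Age and cluster cannot be told apart for most of these cells.

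Of 28 tested genes of the fibrillar collagen and matrix list, 20 fell and 2 rose, beside 5.17% lower and 3.92% higher of all genes tested, with a median log2 fold change of -0.61 in members and -0.31 in other fibroblasts. Eln, the elastin gene, had 58.4 and 57.0 CPM in aged and 411 and 305 CPM in young members (-2.60 ± 0.18, edgeR adjusted p = 5.14e-06), and 112 and 106 CPM in aged and 235 and 252 CPM in young other fibroblasts. The risers were Dcn and Fbln2. In the list of collagen processing and crosslinking enzymes 13 of 25 fell and none rose. Lox, which crosslinks collagen and elastin, had 233 and 186 CPM in aged and 523 and 422 CPM in young members (-1.15 ± 0.15, adjusted p = 0.000416), and Adamts2, the procollagen N-proteinase, 299 and 263 CPM in aged and 715 and 688 CPM in young members (-1.29 ± 0.11, adjusted p = 2.89e-05). Loxl2 and P4ha2 fell by 1.17 and 1.04 on the log2 scale.

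Collagen VI, the family of the marker Col6a5, fell in its main chains. Col6a1 had 538 and 481 CPM in aged and 1549 and 1264 CPM in young members (-1.44 ± 0.13, edgeR adjusted p = 2.75e-05), Col6a2 had 327 and 263 CPM in aged and 939 and 797 CPM in young members (-1.53 ± 0.14, adjusted p = 2.89e-05), and Col6a3 had 386 and 308 CPM in aged and 718 and 624 CPM in young members (-0.92 ± 0.13, adjusted p = 0.000885). These were 3 of 9 tested genes of the list of collagen VI and its receptors, beside 5.17% lower of all genes tested, and no other passed. The falls of Col6a1 and Col6a2 were larger in members than in other fibroblasts by 0.48 and 0.51 (adjusted p = 0.0166 and 0.0131), while for Col6a3 the difference of -0.42 did not pass (0.0599). Col6a5 itself, a gene of the rule, differed little between ages in members, as given above.

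Basement membrane genes fell in 12 of 21 tested cases, and none rose, beside 5.17% lower and 3.92% higher of all genes tested. The list's median was -0.70 in members and -0.58 in other fibroblasts. Nid1, which links laminin to collagen IV, had 735 and 617 CPM in aged and 1228 and 1161 CPM in young members (-0.79 ± 0.11, edgeR adjusted p = 0.000921), below its level in the other fibroblasts at both ages. The laminin chain gene Lamc1 fell by 0.93 and the perlecan gene Hspg2 by 0.80 on the log2 scale. Fras1 and Col4a3 fell by 2.77 and 2.56 at levels of at most 24.8 CPM. Among matrix proteases and their inhibitors the directions were mixed: 5 of 24 rose (Mmp3, Mmp11, Plau, Timp1 and Mmp14) and 8 fell, among them the membrane-anchored inhibitor Reck (-1.04 ± 0.16, adjusted p = 0.00156).

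**Figure D5:**
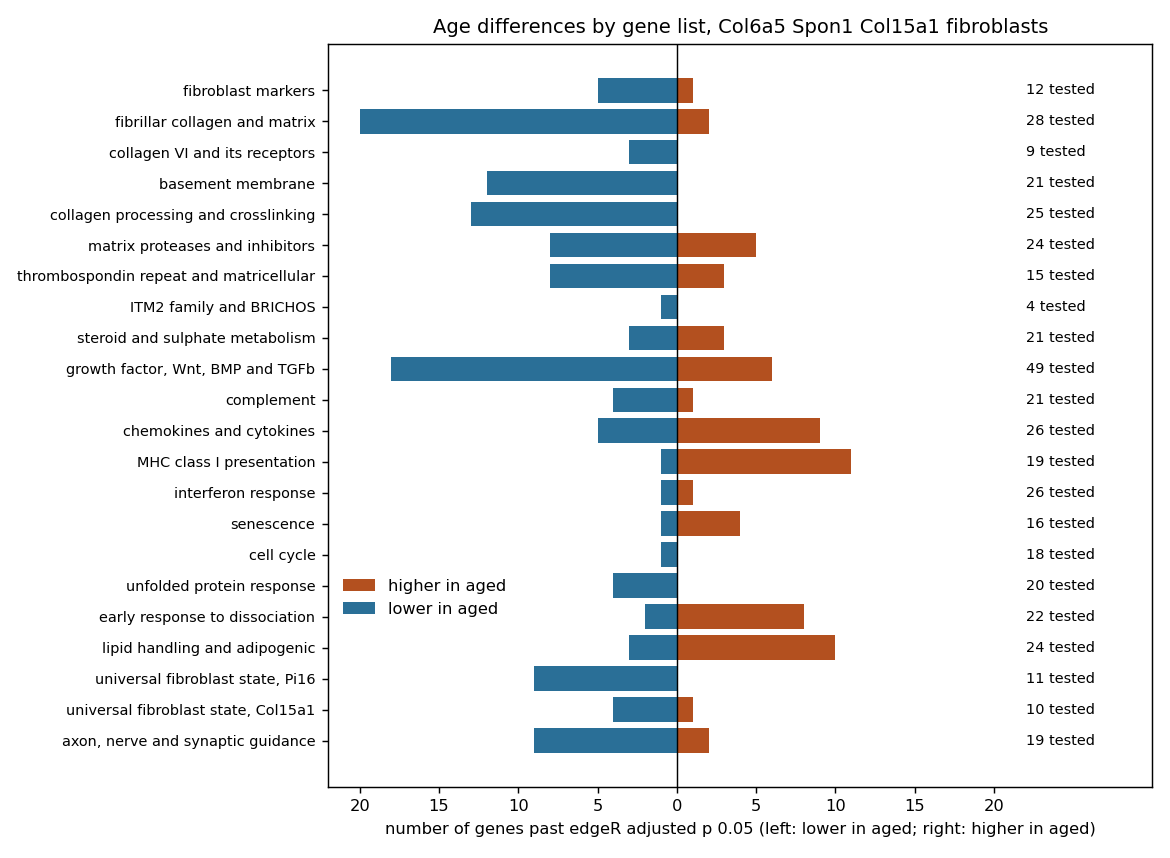
Number of genes (x axis) past an edgeR adjusted p of 0.05 that were lower (left of 0) or higher (right of 0) in aged than in young Col6a5 Spon1 Col15a1 fibroblasts, for each of 22 gene lists (y axis), with the number of genes tested at the right. The fibrillar collagen and matrix list has 20 lower and 2 higher of 28, and the MHC class I list 11 higher and 1 lower of 19.

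Among secreted regulators related to Spon1, 8 of 15 tested genes of the thrombospondin repeat and matricellular list fell and 3 rose. The counts of this and the next lists stand beside 5.17% lower and 3.92% higher of all genes tested. Rspo3, which strengthens Wnt signalling, had 11.7 and 26.3 CPM in aged and 84.4 and 89.0 CPM in young members (-2.13 ± 0.24, edgeR adjusted p = 0.00014). In other fibroblasts it had 23 and 31.3 CPM in aged and 32.4 and 32.7 CPM in young libraries (-0.25), and the difference of -1.91 passed (adjusted p = 6.56e-05). Spon2, a relative of Spon1, fell by 1.39 on the log2 scale, with 43.8 and 24.6 CPM in aged and 89.7 and 91.2 CPM in young members. Sparcl1, a matricellular glycoprotein gene, rose in contrast (927 and 804 CPM in aged, 417 and 395 CPM in young members, 1.12 ± 0.11, adjusted p = 7.32e-05). Of 49 growth factor, Wnt, BMP and TGF-beta genes 18 fell and 6 rose. In the ITM2 and BRICHOS list only Tnmd passed of 4 tested, and the most abundant, Itm2b, stood at 3615 and 4052 CPM in aged and 3634 and 3859 CPM in young members (0.06, adjusted p = 0.769).

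Of 21 tested genes of steroid and sulphate metabolism, the pathways of Sult1e1, 15 did not pass, 3 rose and 3 fell, beside 3.92% higher and 5.17% lower of all genes tested, and the list's median was -0.03. Esr1, the oestrogen receptor alpha, had 12.7 and 15.8 CPM in aged and 69.6 and 55.7 CPM in young members (-2.10 ± 0.24, edgeR adjusted p = 0.000159), a fall larger than in other fibroblasts by 1.35 (adjusted p = 0.00445). Hsd11b1, the enzyme that regenerates active glucocorticoid, had 255 and 208 CPM in aged and 114 and 91.6 CPM in young members (1.20 ± 0.15, adjusted p = 0.000356). Aged and young values did not overlap for either gene. No source used here states the sex of the mice.

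Immune genes moved in part. In the chemokine and cytokine list 9 of 26 rose and 5 fell (median 0.57 in members, 0.30 in other fibroblasts), and its summed level was 4293 and 3288 CPM in aged and 1449 and 1488 CPM in young members. Cx3cl1 rose by 1.98 on the log2 scale at a level of at most 23.4 CPM, and did not pass without the first aged or without either young library (adjusted p = 0.132, 0.0578 and 0.0534). In the MHC class I presentation list 11 of 19 rose and 1 fell (median 0.53 in members, 0.61 in other fibroblasts). H2-Q4 had 74.0 and 84.2 CPM in aged and 28.5 and 26.6 CPM in young members (1.55 ± 0.15, edgeR adjusted p = 6.74e-05), a gene with near-identical family members, and the immunoproteasome subunit Psmb8 had 246 and 339 CPM in aged and 138 and 147 CPM in young members (1.06 ± 0.15, adjusted p = 0.000628). The interferon response list had 1 rise and 1 fall among 26, near the 3.92% higher and 5.17% lower of all genes tested. Complement had 1 rise, C4b, and 4 falls among 21, of which the secreted C1q-related genes C1qtnf2 (102 and 90.3 CPM in aged, 311 and 317 CPM in young members) and C1qtnf3 fell by 1.68 and 2.36 on the log2 scale. C3, the most abundant of the list, stood at 7533 and 6891 CPM in aged and 6784 and 6322 CPM in young members (0.17, adjusted p = 0.320).

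The genes of the Pi16-type list, already low in members, were lower still in aged members. Of 11 tested, 9 fell and none rose, beside 5.17% lower and 3.92% higher of all genes tested. The list's median was -1.25 in members and -0.27 in other fibroblasts. For 6 of its genes the fall was larger in members by the test of the difference, beside 1.55% of all genes in that test. Dpp4 had 31.2 and 21.9 CPM in aged and 85.3 and 71.2 CPM in young members (-1.54 ± 0.20, edgeR adjusted p = 0.000504), against 325 and 277 CPM in aged and 332 and 320 CPM in young other fibroblasts, a difference of -1.45 (adjusted p = 0.000158). Sema3c, a secreted guidance cue, had 26.3 and 49.1 CPM in aged and 155 and 138 CPM in young members (-1.91 ± 0.21, adjusted p = 0.000123; difference -1.67, adjusted p = 0.000208). Within cluster 0 Dpp4 stood at 0.53 and did not pass. Limch1 fell by 2.01 on the log2 scale and did not pass without the second young library (edgeR adjusted p = 0.106) or with DESeq2 (0.0756). In the axon and nerve guidance list 9 of 19 fell and 2 rose, one of them the semaphorin and growth factor co-receptor Nrp1 (290 and 252 CPM in aged, 102 and 99.8 CPM in young members, 1.45 ± 0.12, adjusted p = 2.48e-05).

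Lists of cell state moved less uniformly, and their counts stand beside 3.92% higher and 5.17% lower of all genes tested. In the lipid handling list 10 of 24 rose and 3 fell; Pltp, the phospholipid transfer protein gene, had 249 and 213 CPM in aged and 71.6 and 75.7 CPM in young members (1.68 ± 0.13, edgeR adjusted p = 1.16e-05), and the fatty acid receptor Cd36 fell by 2.11 on the log2 scale. In the senescence list 4 of 16 rose, among them Cdkn2c and the inhibitor Cdkn2b (47.7 and 38.6 CPM in aged, 20.3 and 18.8 CPM in young members, 1.16 ± 0.19, adjusted p = 0.00266), and 1 fell. In the unfolded protein response list 4 of 20 fell and none rose; Hspa5, the chaperone BiP, had 817 and 847 CPM in aged and 1207 and 1435 CPM in young members (-0.64 ± 0.11, adjusted p = 0.00348). Calr fell by 0.42 and did not pass without the second aged library or without either young one (adjusted p = 0.132, 0.0751 and 0.151). Of 22 genes of the early response to tissue dissociation 8 rose and 2 fell, and their summed level was 10727 and 10683 CPM in aged and 6841 and 8499 CPM in young members. That list moved beside the results above, and its part in them was not tested. In the cell cycle list 1 of 18 fell and none rose, near the 5.17% lower of all genes tested.

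Of 14740 genes tested for a difference in the age change between members and other fibroblasts, 271 passed (1.84%), 42 with a difference above 0 (0.285%) and 229 below 0 (1.55%). Differences below 0 were the more frequent over all members and in cluster 10 (26 above and 161 below 0), but not among members of cluster 0, which holds most aged members, where 190 were above and 63 below 0. For a single cluster the comparison set was not the same. Its members were set against all remaining gated fibroblasts of every cluster, the members in other clusters included. Of the 229 over all members, 13 were among 28 tested genes of the fibrillar collagen and matrix list and 9 among 49 of the growth factor list. There were 6 each among 24 of the protease, 15 of the matricellular, 24 of the lipid and 11 of the Pi16-type list. Of the tubule markers, transcripts of another cell type, 6 of 7 tested were also among the 229. These counts stand beside 1.55% of all genes tested, and the lists share some genes. Fmod fell more in members by 2.36 (edgeR adjusted p = 2.76e-06), Col12a1 by 2.23 (0.00503), Eln by 1.45 (0.000395) and Lox by 0.69 (0.00218). Alcam and Kdr fell more by 2.89 (4.66e-05) and 2.14 (0.00839). C4b and Sparcl1 rose in both sets but less in members, by 0.72 (0.000947) and 0.84 (0.000165). Sept4 also rose less, by 1.08 (0.0184). Values of other fibroblasts and members of a library share that library, which was kept as a block in this test.

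Transcripts of other cell types were present in the members' sums and some moved with age, beside 3.92% higher and 5.17% lower of all genes tested. The 9 genes of the B and plasma cell list summed to 5968 and 15884 CPM in aged and 20.3 and 20.8 CPM in young members, and all 7 tested rose. Most of that level was Igkc, of which 97.6% in the first and 64.8% in the second aged library were in 1 cell each, although 55.7% and 74.6% of aged members held an Igkc UMI, as did 68.2% and 78.5% of aged immune droplets. T, NK and innate lymphoid markers summed to 55.5 and 409 CPM in aged and 8.27 and 13.4 CPM in young members, with 4 of 5 tested higher and Trac at 0. The 10 tubule markers summed to 3237 and 3087 CPM in aged and 4921 and 5847 CPM in young members, and all 7 tested fell, with Slc34a1, Miox and Lrp2 at 0 in both aged libraries. Macrophage markers summed to 220 and 860 CPM in aged and 749 and 941 CPM in young members, with 1 of 11 lower. Tendon markers summed to 45.8 and 93.0 CPM in aged and 772 and 537 CPM in young members, with Chad at 0, 4 of 5 tested lower and Comp higher. Red blood cell markers ranged from 0 to 500 CPM.

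Markers of vessel, nerve and surface cells were low throughout. Summed levels were 58.4 and 61.4 CPM in aged and 89.3 and 62.1 CPM in young members for mural cells, with Higd1b at 0, and 22.4 and 23.7 CPM in aged and 87.5 and 74.1 CPM in young members for endothelial cells, where Cdh5 and Kdr fell and Flt1 rose. They were 48.7 and 101 CPM in aged and 133 and 103 CPM in young members for mesothelial cells, and 18.5 and 17.5 CPM in aged and 46.8 and 48.0 CPM in young members for Schwann cells, with Sox10 at 0. The clusters led by markers of other cell types other than adipocytes held 2.61% and 9.94% of aged and 4.39% and 7.93% of young members. With those members left out, 58 of the genes described here that had passed were tested again, and all 58 still passed in the same direction. With the adipocyte-led cluster 10 left out as well, 57 of them could be tested, all 57 kept their direction and 55 passed. The tubule, B and plasma cell markers were not among these 58 genes. Nor were some genes named only by their direction, such as Dcn and Fbln2.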

How the data were processed

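Per the labels, whole renal capsules were digested and run on the 10x Chromium 3′ v3.1 chemistry. The authors deposited UMI counts per gene and barcode, unnormalised, made with Cell Ranger 6.0.2 on GRCm38 per the submitters' processing notes, while the file headers name 6.0.1. The 4 files hold 52636 genes, 52403 of them (99.6%) found in GENCODE M21. Barcodes under 500 UMIs, under 300 genes or over 20% mitochondrial UMIs were dropped. No doublet was removed; Scrublet scores (scanpy 1.11.5) served an alternative.

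The members, the 33 gene lists and the tests were chosen with earlier results of these data known. Member UMIs were summed per library, because cells are not replicates, and tested with edgeR 4.0.16 (quasi-likelihood, TMM, filterByExpr, Benjamini-Hochberg adjustment) in R 4.3.3. The difference in age change used all 8 sums with the library as a block. The rule's genes entered the fits but not the counts. An exact permutation test of 2 against 2 libraries cannot go below p = 0.333 and was not used. Genes named are the 12 largest rises and 12 largest falls past the threshold with a mean of at least 30 CPM at the higher age and at least the immune droplets' level (genes of the rule, mitochondrial, ribosomal protein, immunoglobulin and Gm or Rik genes left out), the 6 largest differences each way and the 15 highest and 10 lowest in members under like filters, and up to 4 per list with its most abundant gene. A few others were named after their values were seen. Log2 ratios of members to other fibroblasts used CPM + 1. Clusters came from Leiden (leidenalg 0.10.2, resolution 1) on 2000 variable genes and 30 components. Alternatives included DESeq2 1.42.0, no filter, each library left out and other marker thresholds. The test was checked on simulated counts.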

Additional observations from a re-analysis of the deposited data

Results flagged for a closer look

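The age change differed between the Col6a5 Spon1 Col15a1 fibroblasts and the other fibroblasts, by the edgeR interaction test, for the 12 genes below, 6 each way, taken by fitted difference among genes with at least 30 CPM in either set. The fitted values of Nov and Adamts16, with no aged UMI in members, depend on the prior count, so their place among the 6 below 0 is not established; Alcam at -2.89 exceeds both of their bounds. Values are log2 fold changes aged over young, members minus other fibroblasts.

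Above 0 were Adipoq at 3.75 (adjusted p = 0.0319), Olfml2a at 2.34 (4.96e-05), Rtn1 at 1.47 (0.00622), Il18 at 1.04 (0.0197), Car3 at 1.02 (0.0349) and Akr1b8 at 0.86 (0.0131). Adipoq and Car3, known from adipocytes, rested on the first aged library, where 1 cell held 96.6% and 72.7% of their UMIs in members, and without that library Adipoq stood at -0.61 and Car3 at 0.45, neither past the threshold. Il18, an inflammatory cytokine gene, had 23.4 and 33.3 CPM in aged and 20.8 and 18.8 CPM in young members, and 46.6 and 52.8 CPM in aged and 65.7 and 75.8 CPM in young other fibroblasts. Il18 did not pass without the second aged or the second young library. Akr1b8, an aldo-keto reductase gene, had 47.7 and 38.6 CPM in aged and 25.4 and 25.7 CPM in young members, and did not pass without the first aged or the second young library. With DESeq2 Adipoq (adjusted p = 0.99986), Car3 (0.99986) and Il18 (0.0585) did not pass, and with no filter on low counts Adipoq (edgeR adjusted p = 0.239), Rtn1 (0.0614), Il18 (0.122), Car3 (0.269) and Akr1b8 (0.0795) did not.

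Below 0 were Kcnma1 at -4.49 (0.0163), Bmp3 at -4.37 (0.0146), Npnt at -3.48 (0.00542) and Tagln at -3.07 (0.0203), with 1 aged UMI for Kcnma1 and for Bmp3 and 2 for Npnt. For Nov and Adamts16 aged members held no UMI, so a floor of 3 counts over both aged libraries gives them as at least 6.58-fold and at least 7.98-fold lower in aged than in young members, and their differences are bounds of -2.41 (0.00188) and -1.38 (0.0327). Nov had 81.3 and 57.4 CPM in aged and 82.6 and 89.5 CPM in young other fibroblasts. Tagln, a smooth muscle actin-binding protein gene, had 4.87 and 2.63 CPM in aged and 39.1 and 16.7 CPM in young members, and 45.8 and 26.2 CPM in aged and 30.1 and 31.4 CPM in young other fibroblasts. Without the first aged library Bmp3, Adamts16 and Tagln did not pass, and without the second Kcnma1 and Adamts16 did not. With DESeq2 Kcnma1 (adjusted p = 0.204), Bmp3 (0.264), Npnt (0.110) and Adamts16 (0.220) did not pass, and with no filter on low counts Kcnma1 (edgeR adjusted p = 0.118), Bmp3 (0.120), Tagln (0.188) and Adamts16 (0.166) did not.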

How the results depend on the processing

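Counts of genes moved with the processing. For age in members (1127 genes), DESeq2 gave 744, leaving out 1 library 696 to 1415, at least 4 markers 256, at least 2 markers 1869, cells thinned to 3000 UMIs 333, cluster 10 alone 103 and cluster 0 alone 179. For other fibroblasts (3611), DESeq2 gave 2325 and leaving out 1 library 1745 to 3994. For the difference (271), DESeq2 gave 110, no filter 97, at least 4 markers 80, at least 2 markers 706 and thinned cells 159. With the replicate block there were 1006 genes in members, 4346 in other fibroblasts and 518 differences. In members, same-numbered libraries had deviations with a correlation of 0.0498. That 1 value cannot tell whether same-numbered libraries were handled together, which was not tested. The member share (8.33% in aged, 21.0% in young) was 2.44% (aged) and 11.0% (young) at 4 markers, 20.6% (aged) and 32.0% (young) at 2 markers, 6.54% (aged) and 14.6% (young) without Itm2a, 4.37% (aged) and 16.4% (young) thinned, 11.0% (aged) and 30.9% (young) with Smpd3, Cxcl13 and Edn1 not used, and 7.68% (aged) and 17.6% (young) without clusters of other cell types or adipocytes; in young libraries it was 22.1% under the stricter cell filter and without clusters of other cell types.

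Over single genes and alternatives, 1168 values kept direction and side of the threshold, 153 lost the call, 4 gained one and 26 reversed; the cause was not tested. In cluster 10 the reversed values were Sept4 -0.059, Fmod 1.21, Itm2b -0.30, C3 -0.64 and the differences of Il18 (-0.22) and Tagln (1.18). In cluster 0 they were Vcam1 -0.021, Fmod 0.86, C1qtnf2 0.21, Dpp4 0.53, Penk 0.47 and the differences of Rtn1 (-0.22), Nov (0.030), Adamts16 (1.38), Kcnma1 (2.35) and Npnt (9.28). Differences given for a cluster set its members against all remaining gated fibroblasts, members in other clusters included, and so are not the contrast used over all members. The Adipoq difference was -0.61 to 5.70 over the libraries left out (lowest without the first aged one), -0.054 without doublets, -1.27 at 4 markers and -3.81 without other-type and adipocyte clusters. The Car3 difference was -0.069 without other-type clusters and -1.88 without adipocyte ones too. Bmp3 stood at 1.15 at 4 markers, and Itm2b at -0.025 to 0.14 over the libraries left out (lowest without the second aged one), -0.0024 at 4 markers and -0.030 thinned. Genes with few UMIs in the 296 aged members are limited by depth.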
